A study of Mus musculus with 8 samples.

Results

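The genes described here encode the core machinery of autophagy, a small group of lysosomal proteins, and the subunits of the vacuolar proton pump (V-ATPase) that acidifies the lysosome. They were chosen by name: every gene of the deposited table whose symbol begins with Atg and a number or with Atp6v, and further genes given one by one, among them Ulk1, Becn1, Sqstm1, Map1lc3a, Tfeb, Lamp1 and Ctsd. This gave 61 of the table's 21959 genes. Of these, 59 are autophagy genes, lysosomal genes or pump subunits. The other 2, Atg4a-ps and Atp6v1fnb, are a pseudogene of Atg4a and a neighbour of Atp6v1f, and were taken in through their spelling. Measured expression played no part in the choice.

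In autophagy, a kinase complex around Ulk1 starts the process, a lipid kinase complex around Pik3c3 and Becn1 marks the membrane with phosphatidylinositol 3-phosphate (PI3P), and Atg9 vesicles and the lipid transfer protein Atg2 supply the growing membrane. A pair of ubiquitin-like conjugation systems then attaches Atg8 proteins (the LC3 and GABARAP families) to that membrane, where receptors such as p62 bring in cargo. The closed autophagosome fuses with lysosomes, whose proteases work at the low pH made by the V-ATPase, a rotary pump with a cytosolic V1 part that splits ATP and a membrane V0 part that moves protons. Neurons depend on this route for clearing proteins and organelles, and also use the pump to load synaptic vesicles with transmitter.

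The study concerns sleep in mice given isoliensinine, an alkaloid of lotus seeds. It sequenced polyadenylated RNA of 4 libraries labelled Model, of WT genotype and given PCPA (para-chlorophenylalanine, an inhibitor of serotonin synthesis), and 4 labelled IsoL, of WT genotype and given isoliensinine. According to the design text, the mice were female, of the ICR strain and treated for 7 days, with pentobarbital given 40 minutes after dosing ended and the hypothalamus dissected, while the tissue label reads brain; age is not given. It lists isoliensinine at 12.5, 25 and 50 mg/kg, and neither the dose sequenced nor whether the IsoL mice also received PCPA is stated. No untreated group was analysed here, so each difference is between IsoL and Model. Nothing in the labels ties each library to its own mouse, so p-values measure only the spread among these libraries, and that spread may be technical.

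Summed counts ran from 14262836 to 21620466 per library, and the members took 0.728 to 0.761% of them. Model 2 stood apart from the rest: in a chi-square comparison of counts, pairs that held it gave 10.9 to 15.2 per degree of freedom, and all other pairs 2.52 to 9.75, and its mitochondrial share of counts was the highest of the 8 at 5.64%. The summed level of 6 choroid plexus markers was 23.3 to 35.0 CPM (read counts scaled to a common library size) in Model and 719, 617, 81.5 and 32.7 CPM in IsoL 1 to 4. The 5 markers of cortex and hippocampus summed to 69.1 to 93.9 CPM in Model and 192, 171, 86.7 and 67.5 CPM in IsoL 1 to 4. The 12 hypothalamic markers were all detected in each library, but their sum was 104 to 214 CPM in IsoL and 245 to 295 in Model. Of the 12, 10 had a lower fitted level in IsoL, and 1 of them, Pmch, passed the test. The 4 Y-linked genes looked up summed to 301 to 354 CPM in every library, against the stated sex.

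None of the 61 genes changed between the groups at a Benjamini-Hochberg adjusted p under 0.05 in edgeR's quasi-likelihood test, in which 54 had enough counts to be tested and 0.275% of all 14536 genes tested passed. At an unadjusted p under 0.05 there were 8 of the 54, or 14.8% against 13.2% of all genes tested. They comprised 3 higher and 5 lower in IsoL, where 6.44% of all genes tested were higher and 6.78% lower. DESeq2, with the same filter, called 1 of the 54 members (Map1lc3a) and 311 of the 14536 genes. Limma voom called none of the 54 members and 175 of the 14536 genes. The estimates were small throughout. The median log2 fold change was -0.00052 over the members and -0.0015 over all genes tested, 40 of the 54 lay within 0.1 of no change on the log2 scale, and the largest difference in either direction was 1.18-fold. The 95% intervals, which measure how large a change these libraries could hide, lay within 1.2-fold both ways for 40 members, within 1.5-fold for 53 and within 2-fold for all 54; the exception at 1.5-fold was the little expressed Atp6v1c2. Values that did not overlap between the groups occurred in 5 of the 54 members, or 9.26%, against 8.48% of all genes tested. In 2 members all IsoL values were above (4.04% of all genes tested) and in 3 all were below (4.44%). Fitted log2 fold changes were above 0 for 26 members and below 0 for 28, against 49.5% and 50.5% of all genes tested. These shares were near the background.

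**Figure D1:**
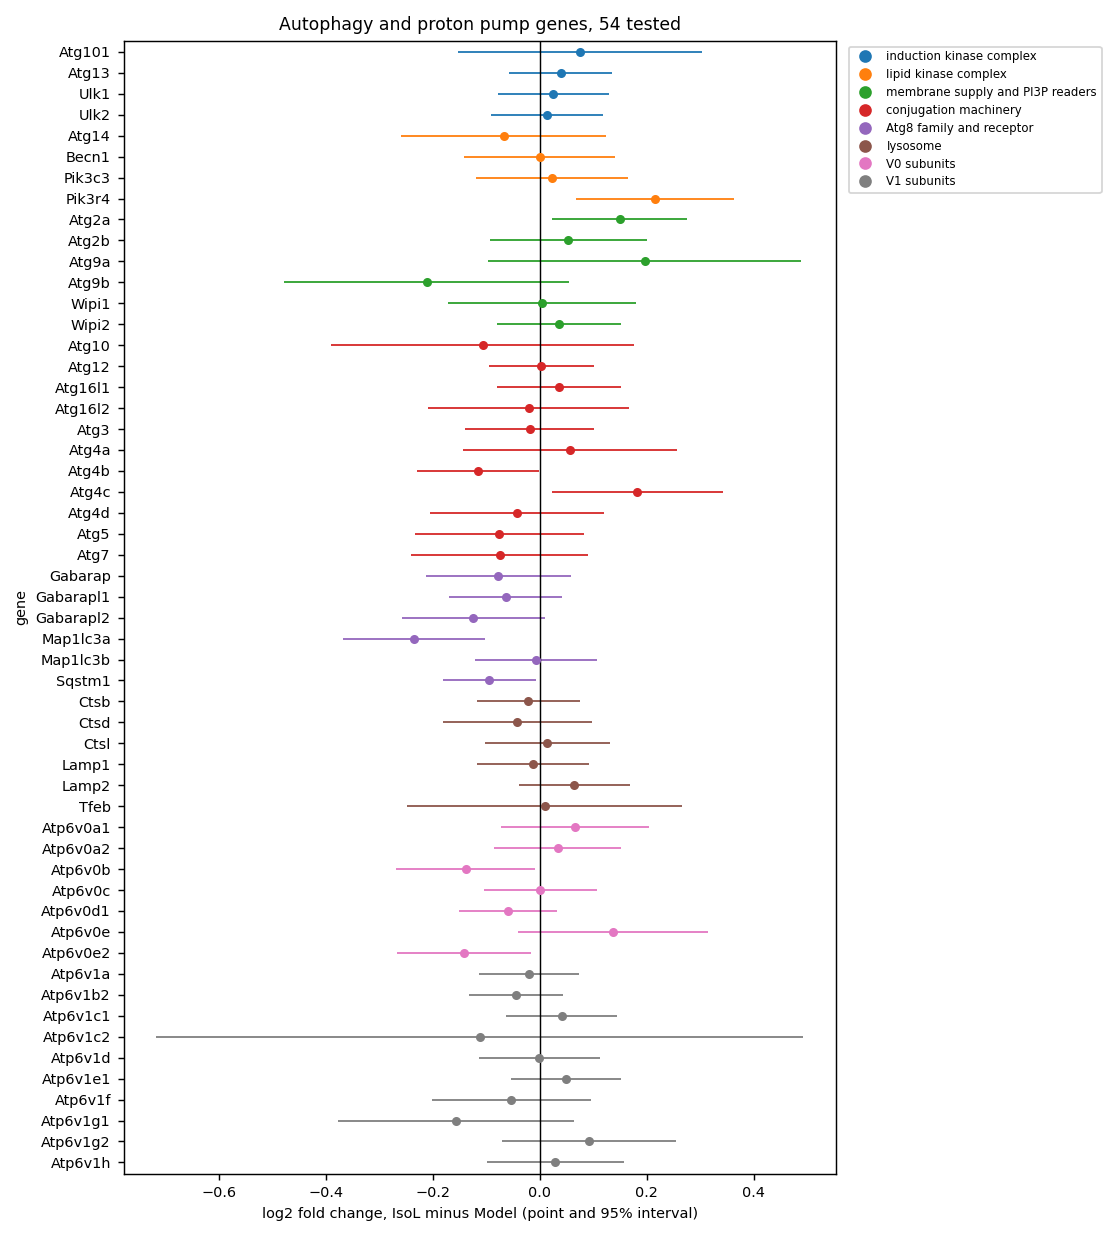
Log2 fold change (IsoL minus Model, x axis) of the 54 tested genes, one per line and coloured by role, with the 95% interval of the edgeR fit. The estimates lie between -0.24 (Map1lc3a) and 0.22 (Pik3r4), and the widest interval, of Atp6v1c2, runs from -0.72 to 0.49.

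The induction complex, in which the kinases Ulk1 and Ulk2 act with the scaffold Atg13 and its partner Atg101, differed little between the groups. Ulk1 stood at 80.9, 87.4, 81.4 and 85.9 CPM in Model 1 to 4 and at 86.7, 87.3, 81.9 and 85.6 CPM in IsoL 1 to 4. The groups overlapped almost fully (log2 0.03, 95% interval -0.08 to 0.13, edgeR adjusted p = 0.857). Its paralog Ulk2 was the more abundant per length, with 63.3% of the summed FPKM (fragments scaled by gene length and library size) of the pair in Model and 63.1% in IsoL. Ulk2, Atg13 and Atg101 had log2 fold changes from 0.01 to 0.08, and none of the 4 genes reached an unadjusted p of 0.05. All 4 estimates were above 0, but 3 of them were below 0 with IsoL 1 and IsoL 2 left out.

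In the lipid kinase complex the regulatory subunit Pik3r4 (Vps15), which holds the lipid kinase Pik3c3 in the complex, had higher values in each IsoL library. Pik3r4 (ENSMUSG00000032571, chromosome 9, 105520177 to 105564856, plus strand, as the deposited table gives it; the sources used here do not name its genome build) stood at 36.3, 31.0, 36.5 and 37.5 CPM in Model 1 to 4 and at 40.9, 42.8, 40.6 and 39.8 CPM in IsoL 1 to 4. The groups did not overlap, with Model 2 the lowest of all. The log2 fold change was 0.22 (SE 0.07, 95% interval 0.07 to 0.36), the highest of the members, and it did not pass over all genes (edgeR unadjusted p = 0.00734, adjusted p = 0.203). Without Model 2 it was 0.16. The rest of the complex showed no such difference. Becn1, the scaffold of the complex, stood at 48.5, 51.0, 43.0 and 45.0 CPM in Model and 47.9, 48.6, 43.6 and 47.4 in IsoL, with group means of 46.9 ± 3.57 and 46.8 ± 2.21 CPM (SD, n = 4 each). Pik3c3 and Atg14, the subunit that sends the complex to autophagosome sites, had log2 fold changes of 0.02 (95% interval -0.12 to 0.17) and -0.07 (95% interval -0.26 to 0.12).

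Among the genes for membrane supply, both lipid scramblase genes of the Atg9 family took extreme values in Model 2. Atg9a, the widely expressed form, stood at 53.2, 33.9, 53.8 and 54.0 CPM in Model 1 to 4 and at 57.2, 55.3, 55.2 and 55.2 CPM in IsoL 1 to 4. The IsoL values all lay above the Model values, by a small step from 3 Model libraries and a large one from Model 2. The log2 fold change of 0.20 (95% interval -0.10 to 0.49, edgeR adjusted p = 0.564) rested mostly on Model 2 and was 0.06 without it. Atg9b, its less abundant paralog, was at 9.58, 14.1, 12.1 and 11.5 CPM in Model and 10.6, 10.0, 9.04 and 11.2 in IsoL, with Model 2 the highest. The share of Atg9b in the summed FPKM of the pair therefore reached 37.8% in that library and was 19.3% in the lowest. The log2 fold change of Atg9b was -0.21 (edgeR adjusted p = 0.489), and -0.11 without Model 2. Atg9b overlaps the end of Nos3 on the other strand, and since no strand marking is stated, reads in that overlap cannot be assigned.

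Atg2a, which moves lipids from the endoplasmic reticulum to the growing membrane, stood at 45.0, 47.8, 47.8 and 50.5 CPM in Model and 56.5, 51.9, 50.1 and 53.6 in IsoL. Only IsoL 3 lay below the highest Model library. Its log2 fold change of 0.15 (95% interval 0.02 to 0.28) had an unadjusted p of 0.0241 in edgeR and did not pass over all genes (adjusted p = 0.298). Atg2b, the second lipid transfer gene, had a log2 fold change of 0.05, and the PI3P readers Wipi1 and Wipi2 were at 0.0044 and 0.04. Wipi2 made up 67.3% of the pair's FPKM in Model and 67.8% in IsoL.

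The conjugation machinery comprises the E1-like enzyme Atg7, the E2-like enzymes Atg3 and Atg10, the conjugate of Atg12, Atg5 and Atg16l1 that places Atg8 proteins on the membrane, and the Atg4 proteases that trim Atg8 proteins and later release them. Of the 11 genes, 7 were below and 4 above Model, and none passed. Atg5 stood at 27.1 to 32.5 CPM in Model and 27.0 to 30.1 in IsoL, Atg7 at 23.2 to 28.2 and 23.4 to 26.2, and Atg16l1 at 53.2 to 55.0 and 52.9 to 59.4. The groups overlapped in all 3. Their 95% intervals lay within 1.2-fold both ways.

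The protease genes Atg4c and Atg4b had estimates of opposite sign. Atg4c stood at 53.3, 44.1, 44.5 and 52.7 CPM in Model 1 to 4 and at 59.1, 56.0, 54.4 and 51.4 CPM in IsoL 1 to 4, with a log2 fold change of 0.18 (SE 0.07, edgeR unadjusted p = 0.0283, adjusted p = 0.312). Atg4b, the form with the broadest action on Atg8 proteins, stood at 81.5, 78.7, 71.7 and 77.0 CPM in Model and at 68.5, 74.1, 70.1 and 72.4 in IsoL (log2 -0.12, SE 0.05, edgeR unadjusted p = 0.0477, adjusted p = 0.369). Single libraries overlapped in both genes, and the log2 fold change of Atg4c was 0.12 without IsoL 1 and IsoL 2. Per length, Atg4c was the leading form, with 46.9% ± 2.52 of the family's FPKM in Model and 51.1% ± 1.70 in IsoL (SD, n = 4). The share of Atg4b was 29.2 to 31.9% in Model and 24.8 to 27.8% in IsoL, and for that share the groups did not overlap. Atg4b overlaps Thap4 on the other strand over 3365 bases, so its reads are uncertain to that extent. The same limit holds for 20 of the members, 12 of them described here by library, among them Becn1 with Cntd1 (10366 bases), Lamp1 with Grtp1 (3317 bases), Sqstm1 with Mrnip (750 bases) and, on the same strand, Ctsd with Gm49369 (6757 bases).

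**Figure D2:**
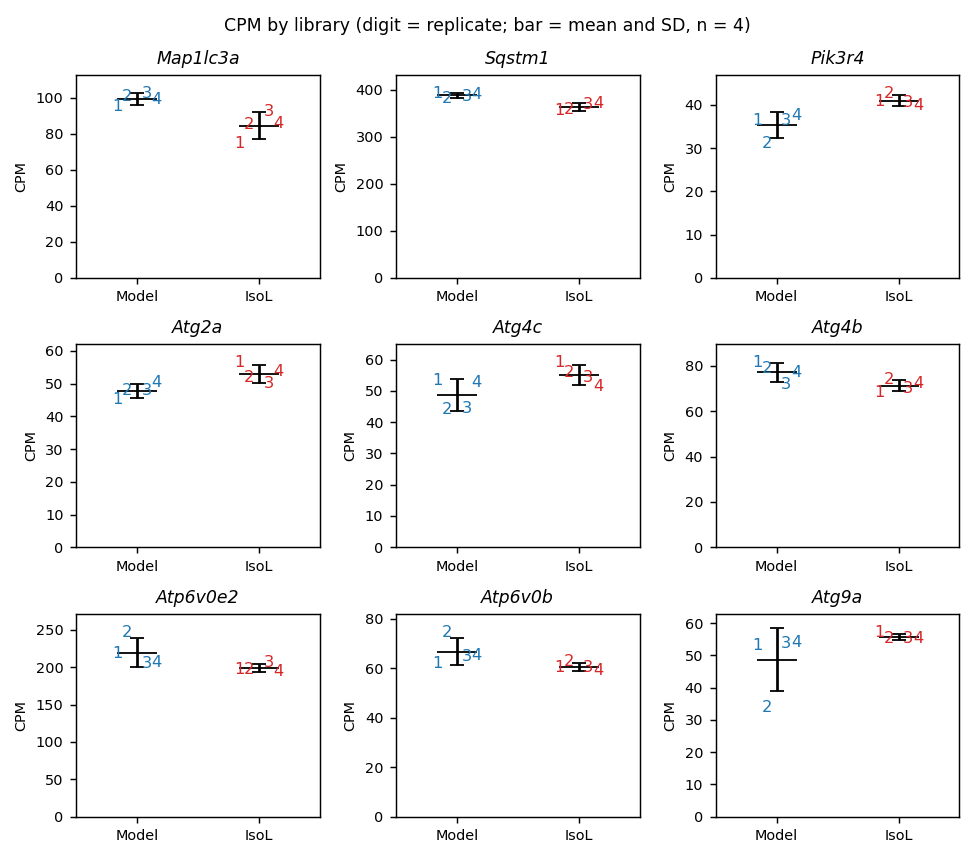
CPM of 9 genes in each library (digits give the replicate number; bars are mean and SD of n = 4; y axes start at 0). Map1lc3a, Sqstm1, Pik3r4 and Atg9a do not overlap between the groups, and Model 2 is the low point of Pik3r4 and Atg9a and the high point of Atp6v0e2 and Atp6v0b.

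The Atg8 genes and the receptor Sqstm1 all had estimates below Model. The median log2 fold change of these 6 genes was -0.09, and it was -0.059 without Model 2 and -0.055 in limma voom. The count of 6 below Model held with DESeq2 size factors, and it was 5 in limma voom, without IsoL 2 and without Model 2, where Map1lc3b turned. Map1lc3a (ENSMUSG00000027602, chromosome 2, 155118217 to 155119993, plus strand), which encodes the LC3A protein that coats autophagosomes, had the smallest p of all members. It stood at 95.3, 101, 103 and 99.0 CPM in Model 1 to 4 and at 74.5, 85.2, 92.5 and 85.9 CPM in IsoL 1 to 4. Every IsoL library lay below every Model library, and IsoL 1 was the lowest. The log2 fold change was -0.24 (SE 0.06, 95% interval -0.37 to -0.10, edgeR unadjusted p = 0.00192, adjusted p = 0.122). It passed in DESeq2 (adjusted p = 0.0433) and not in limma voom (adjusted p = 0.0819). Without IsoL 1 and IsoL 2 the log2 fold change was -0.16 (edgeR adjusted p = 0.529). Those libraries had the highest sums of choroid plexus and of cortex and hippocampus markers, and the lowest hypothalamic sums. The part of this in the difference was not tested. Markers of the main brain cell types were set beside this group. The 7 astrocyte markers all had estimates above Model, with sums of 1527 to 1599 CPM in Model and 1630 to 1791 in IsoL that did not overlap. Of 7 oligodendrocyte markers 6 were above, with overlapping sums of 14073 to 14522 and 14308 to 15795 CPM, and of 6 neuronal markers 5 were below, with overlapping sums of 4072 to 4843 and 4096 to 4400 CPM. None of these markers passed, each was detected in every library, and their part in the values of the Atg8 group was not tested. In bulk RNA, fewer cells of a type and less RNA per cell cannot be told apart.

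Sqstm1 (ENSMUSG00000015837, chromosome 11, 50090193 to 50101654, minus strand) encodes p62, which binds ubiquitin-tagged cargo and LC3 and is itself degraded by autophagy. It stood at 393, 382, 386 and 390 CPM in Model and at 355, 358, 369 and 370 in IsoL. The groups did not overlap, and the step was small beside the level (log2 -0.09, SE 0.04, 95% interval -0.18 to -0.01, edgeR unadjusted p = 0.035, adjusted p = 0.334). The LC3B gene Map1lc3b, by contrast, had equal means of 178 ± 13.0 CPM in Model and 178 ± 4.16 in IsoL (SD, n = 4). Model 2, at 198 CPM, stood well above the 171 to 173 of the other Model libraries.

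Gabarapl1, of the GABARAP branch, was the most abundant of all members per length, at 194 ± 10.9 FPKM in Model and 187 ± 6.15 in IsoL (SD, n = 4). It made up 43.7% of the family's FPKM in Model and 45.0% in IsoL. In CPM it stood at 366 to 414 in Model and 366 to 384 in IsoL, and the groups overlapped. Gabarapl2 was at 176, 184, 153 and 166 CPM in Model and 144, 162, 164 and 153 in IsoL. The groups overlapped, and the interval of the log2 fold change of -0.12 ran from -0.26 to 0.0091 (edgeR adjusted p = 0.415); without Model 2 the change was -0.08. Gabarap had a log2 fold change of -0.08. Map1lc3b, despite its higher CPM than Map1lc3a, gave only 5.33% of the family's FPKM in Model, because the table lists it with a length of 7517 bases against 1181 for Map1lc3a. The sources used here do not say how gene length was defined, and these shares depend on it.

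The lysosomal genes differed little. Tfeb, the transcription factor that drives lysosomal and autophagy genes, was at 9.51, 12.1, 10.8 and 10.9 CPM in Model and 13.2, 10.3, 10.2 and 9.85 in IsoL. IsoL 1 was the highest and the other IsoL libraries lay within the Model range (log2 0.01, 95% interval -0.25 to 0.27, edgeR adjusted p = 0.981). Lamp1, a main protein of the lysosomal membrane, stood at 321, 354, 308 and 314 CPM in Model and 324, 326, 320 and 316 in IsoL. Lamp2, its partner in that membrane, was at 122 to 136 CPM in Model and 132 to 142 in IsoL (log2 0.06, edgeR adjusted p = 0.603). Of the proteases, Ctsb stood at 476 to 527 CPM in Model and 481 to 493 in IsoL, Ctsd at 89.5 to 112 and 92.8 to 97.7, and Ctsl at 121 to 137 and 123 to 137. The groups overlapped in all of these, and the 95% intervals lay within 1.2-fold both ways for each gene but Tfeb. Microglia are rich in lysosomes; the 8 microglial markers measured summed to 179 to 203 CPM in Model and 191 to 237 in IsoL, all 8 with estimates above Model and none passed, and their part in the lysosomal values was not tested.

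Tfeb and its relatives bind an E-box with the letters CACGTG, best known inside the longer palindrome of the CLEAR element. RefSeq promoter windows (GRCm38.p6, from 250 bases before to 50 after the start site) were matched by symbol for 48 of the 61 genes. The hexamer CACGTG, read on both strands at once since it is a palindrome, occurred in 11 of the 48, or 22.9%, against 8.09% of 27025 genes with such windows. The octamer TCACGTGA, which contains it, occurred in 5 of the 48, or 10.4%, against 304 of all 27025 genes. The longer palindrome itself occurred in 0 of the 48 and in 100 of the 27025 genes, or 0.37%. These 27025 genes were not limited to genes expressed here, whereas 54 of the 61 members had enough counts to be tested. The sets are unlike in that respect. The octamer sites are shown because they carry the letters of the Tfeb motif in pump, protease and conjugation genes; capitals mark the hexamer, and each is written 5′ to 3′ on the strand of the gene.
Atp6v0d1, chr8:105566052-105566077, minus strand: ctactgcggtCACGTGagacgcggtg
Atp6v0e, chr17:26676389-26676414, plus strand: gcgcgccgatCACGTGagcctctgtt
Atp6v1a, chr16:44139375-44139400, minus strand: ttttttaaatCACGTGataggcttaa
Ctsd, chr7:142387910-142387935, minus strand: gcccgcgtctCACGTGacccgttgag
Atg3, chr16:45158748-45158773, plus strand: agagtcgagtCACGTGaggccttagg
Lamp1 held no octamer but 4 hexamers, from 61 to 15 bases before its start site, within this stretch of 72 bases.
Lamp1, chr8:13159090-13159161, plus strand: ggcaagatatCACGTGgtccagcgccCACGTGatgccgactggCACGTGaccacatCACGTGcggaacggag
The 5 genes with the octamer had log2 fold changes from -0.06 to 0.14 and edgeR adjusted p-values of at least 0.504. The 11 with the hexamer ran from -0.14 to 0.14, with a median of -0.04 and edgeR adjusted p-values of at least 0.344. Of these, 2 were above and 9 below Model, where 50.5% of all genes tested were below. A match of letters is a description of these windows and shows no binding.

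The proton pump was expressed from one isoform at most subunit positions. Of 22 subunit genes matched by name, 17 were tested and 5 had too few counts, at most 35 summed over the 8 libraries. Those 5 were Atp6v0a4, Atp6v0d2, Atp6v1b1, Atp6v1e2 and Atp6v1g3, forms best known from kidney, epididymis, bone or testis. Atp6v1b1 had 1, 3, 11 and 7 counts in Model 1 to 4 and 3, 0, 0 and 2 in IsoL 1 to 4, and Atp6v0a4 had 13, 0, 1 and 2 against 2, 2, 5 and 10. A count of 3 corresponds to 0.137 to 0.210 CPM in these libraries, a floor that covers counting error only. The 2 look-alikes outside the pump and pathway, Atg4a-ps and Atp6v1fnb, had no count in Model and 5 and 2 counts summed over IsoL.

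**Figure D3:**
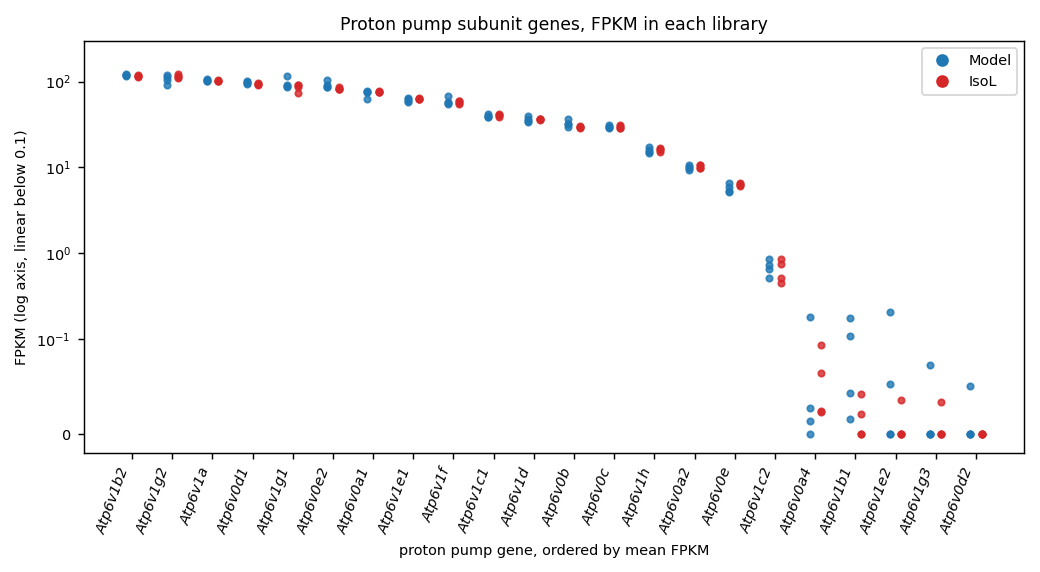
FPKM of the 22 proton pump genes in each library (y axis logarithmic, linear below 0.1; blue Model, red IsoL), ordered by mean level. The levels run from about 118 FPKM for Atp6v1b2 down to 0.662 for Atp6v1c2, and the 5 untested isoforms lie below 0.1 FPKM on average.

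In the cytosolic V1 part, the catalytic subunit gene Atp6v1a and its partner Atp6v1b2, which together form the ATP-splitting ring, were close in level, at 104 ± 2.84 and 120 ± 1.87 FPKM in Model and 102 ± 1.33 and 117 ± 2.96 in IsoL (SD, n = 4). In CPM, Atp6v1a stood at 662, 607, 619 and 619 in Model and 632, 624, 609 and 606 in IsoL. Atp6v1b2 stood at 647, 620, 633 and 650 in Model and 611, 609, 636 and 616 in IsoL. Neither separated the groups, and their 95% intervals of -0.11 to 0.07 and -0.13 to 0.04 were among the narrowest. Atp6v1h, a regulatory subunit of V1, was at 141 to 170 CPM in Model and 148 to 163 in IsoL. Of the 10 V1 genes tested, 4 were above and 6 below Model, none reached an unadjusted p of 0.05 and none had groups that did not overlap.

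Subunit G of the V1 stalk was the pump position with the most even mix of isoforms. Atp6v1g2, the neuronal form, gave 53.2% ± 2.22 of the position's FPKM in Model and 57.5% ± 3.58 in IsoL, and the ubiquitous Atp6v1g1 nearly all the rest (SD, n = 4). By library, the share of Atp6v1g2 was 56.1, 51.1, 51.8 and 53.8% in Model 1 to 4 and 62.7, 56.3, 54.5 and 56.3% in IsoL 1 to 4. IsoL 1 was the highest and the groups overlapped. Atp6v1g1 stood at 103, 130, 96.8 and 103 CPM in Model and 83.1, 104, 104 and 97.9 in IsoL. Its log2 fold change was -0.16, with a 95% interval from -0.38 to 0.06 (edgeR adjusted p = 0.547), and it was -0.05 without Model 2 and -0.09 without IsoL 1. Atp6v1g2 stood at 291, 302, 230 and 266 CPM in Model and 309, 296, 277 and 280 in IsoL (log2 0.09, edgeR adjusted p = 0.635). Without Model 3 the log2 fold change was 0.03, and without Model 2 it was 0.15. Atp6v1g2 overlaps Nfkbil1 on the other strand over 2133 bases, where reads cannot be assigned.

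In the membrane part, the 7 tested V0 genes had 4 estimates above and 3 below Model. Atp6v0c, the ring subunit that carries the protons, was at 99.9, 101, 98.0 and 105 CPM in Model and 103, 98.9, 106 and 95.4 in IsoL, with equal means of 101. Atp6v0a1, the form of the large subunit a found in neurons, was set beside Atp6v0a2 and Atp6v0a4. It made up 87.7% ± 1.71 of their summed FPKM in Model and 88.1% ± 0.381 in IsoL (SD, n = 4). Tcirg1, a further form of subunit a that the choice by name did not match, was left out of that sum. Atp6v0a1 stood at 510, 405, 489 and 506 CPM in Model and 515, 498, 493 and 493 in IsoL, with Model 2 far below the rest. Atp6v0d1, of the central stalk, did not overlap between the groups, yet its means of 176 ± 3.64 and 169 ± 4.31 CPM (SD, n = 4) differed by only -0.06 on the log2 scale (edgeR adjusted p = 0.582).

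A pair of V0 genes reached an unadjusted p of 0.05, both lower in IsoL. Atp6v0e2, the brain form of the small subunit e, stood at 219, 247, 205 and 207 CPM in Model and 197, 197, 207 and 195 in IsoL (log2 -0.14, SE 0.06, edgeR unadjusted p = 0.0288, adjusted p = 0.313). Atp6v0b, a further subunit of the proton ring, stood at 61.9, 74.6, 64.9 and 65.2 CPM in Model and 60.3, 62.6, 60.2 and 59.0 in IsoL (log2 -0.14, SE 0.06, edgeR unadjusted p = 0.039, adjusted p = 0.344). Model 2 was the highest library in both, and without it both log2 fold changes were -0.08. The other form of subunit e, Atp6v0e, was at 19.4, 24.3, 21.6 and 20.0 CPM in Model and 23.3, 22.8, 24.0 and 23.6 in IsoL (log2 0.14, edgeR adjusted p = 0.504). Without Model 2 its log2 fold change was 0.21. Its share of the position was 5.37, 5.95, 6.31 and 5.84% in Model and 7.05, 6.92, 6.94 and 7.21% in IsoL. This share did not overlap between the groups. Shares were formed for 35 genes in 14 positions and families, and they did not overlap between the groups for 3 genes, which were both forms of subunit e, whose shares add up to the whole, and Atg4b. These shares were not tested.

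**Figure D4:**
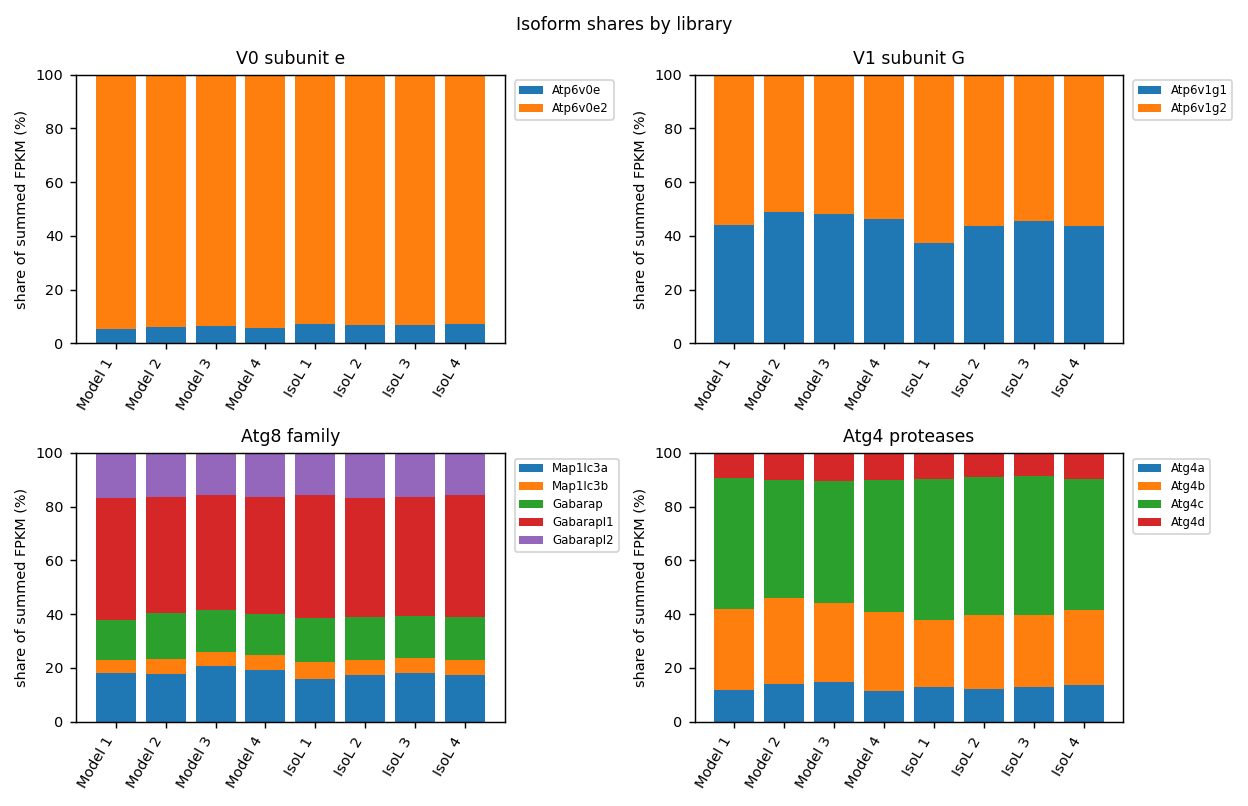
Share of each gene in the summed FPKM of its position or family (y axis, percent) in each library. The minor form Atp6v0e lies at 5.37 to 6.31% in Model and at 6.92 to 7.21% in IsoL, and the leading form of each plotted position or family is the same in all 8 libraries.

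The spread between libraries was larger in Model than in IsoL for 40 of the 54 tested members, or 74.1%, against 65.5% of all genes tested. Without Model 2 it was 32 of 54, or 59.3%, against 50.1%. Over the members the median coefficient of variation was 7.37% in Model and 4.11% in IsoL. Model 2 was the highest Model library for 23 members and the lowest for 13. Its median deviation from the gene mean was 0.05 on the log2 scale over all tested members, and between roles it ranged from -0.07 in the lipid kinase complex to 0.15 in the Atg8 group.

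**Figure D5:**
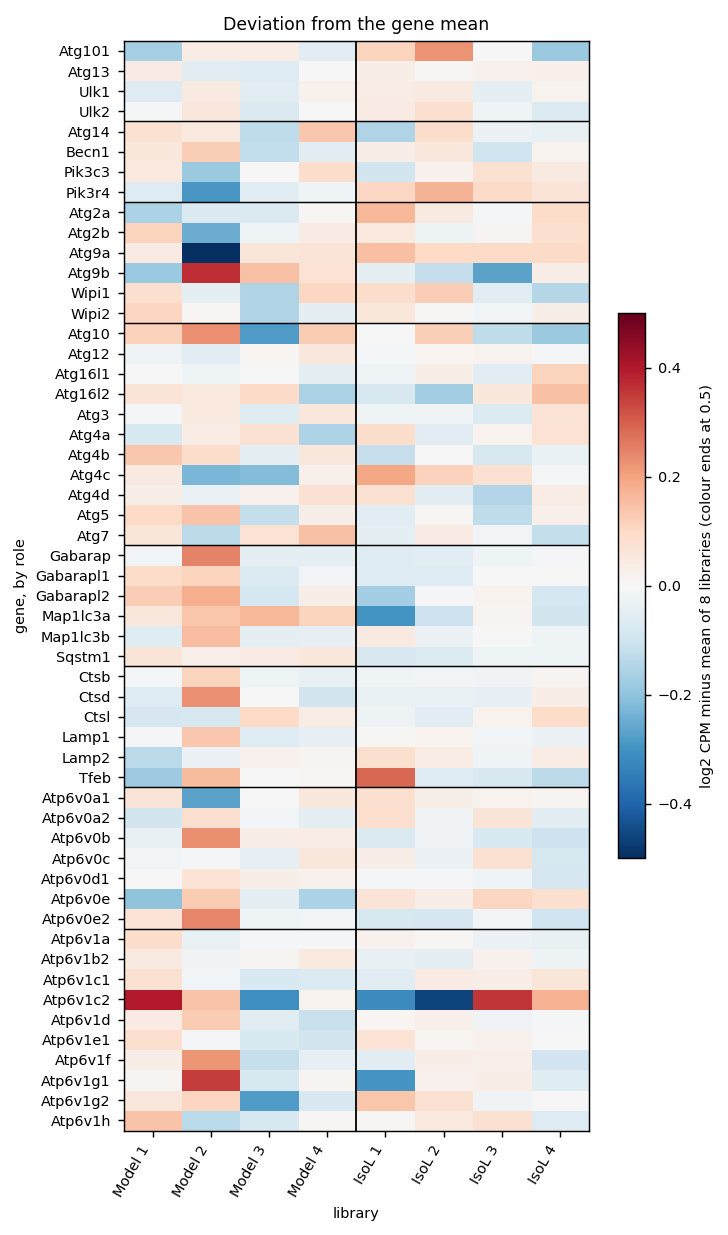
Log2 CPM of the 54 tested genes in each library minus the gene's mean over the 8 libraries (colour scale ends at 0.5; black lines part the roles and the groups). Model 2 has strong colours, low for Atg9a, Pik3r4 and Atp6v0a1 and high for Atg9b, Atp6v1g1, Gabarap and Atp6v0e2. The little expressed Atp6v1c2 has strong colours in other libraries, from -0.46 in IsoL 2 to 0.40 in Model 1.

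Other genes of the pathway, in 5 lists of genes outside the members, gave 1 gene that passed. Of 40 tested genes that act upstream, in mTORC1, AMPK and the control of Tfeb, 1 fell, none rose and the median log2 fold change was -0.0028. That gene was Ddit4, a stress-induced inhibitor of mTORC1, at 35.3, 42.8, 44.6 and 42.4 CPM in Model and 28.0, 32.1, 30.3 and 28.6 in IsoL. The groups did not overlap (log2 -0.47, SE 0.08, edgeR adjusted p = 0.0381). The call was lost when IsoL 1, IsoL 2, IsoL 3, IsoL 4, Model 3 or Model 4 was left out (edgeR adjusted p from 0.0676 to 0.151). The log2 fold change kept between -0.54 and -0.43 over all libraries left out in turn. Counted over all 14 alternatives, the call of Ddit4 was lost in 7, these omissions among them. DESeq2 (adjusted p = 0.00018) and limma voom (adjusted p = 0.0141) also called it. None of 24 further autophagy genes passed. The one with the smallest p was Rubcn, an inhibitor of autophagosome maturation, with a log2 fold change of -0.13 (edgeR adjusted p = 0.267).

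None of 18 further receptor genes passed; Fkbp8, a receptor for mitochondria, had the smallest p (log2 -0.13, edgeR adjusted p = 0.316; log2 -0.06 without IsoL 1 and IsoL 2). None of 45 further lysosomal genes passed, with 28 above and 17 below Model and a median log2 fold change of 0.04. The 28 were 62.2%, against 49.5% of all genes tested. At an unadjusted p under 0.05 in edgeR, 7 were higher and 1 lower, or 17.8% against 13.2% of all genes tested. Values did not overlap between the groups for 5 above and 1 below, or 13.3% against 8.48% of all genes tested. None of 13 further pump genes passed, a list of accessory and assembly genes with Tcirg1, a form of subunit a. Atp6ap2, an accessory protein of the V0 part, was at 375, 406, 367 and 359 CPM in Model and 331, 349, 328 and 329 in IsoL. The groups did not overlap (log2 -0.17, SE 0.05, edgeR adjusted p = 0.146), and the DESeq2 test called the gene at an adjusted p of 0.0333.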

How the data were processed

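Polyadenylated RNA of 8 libraries was measured. The submitters' processing notes name fastp 0.22.0, HISAT2 2.1.0 and HTSeq 0.9.1; the sources used here name no genome build or annotation. Per the labels' protocols, 3 µg of RNA and 15 PCR cycles were used and no strand marking is stated. Read counts per gene were deposited by the authors, per the file headers, and served for all tests. FPKM values, also deposited by the authors, equal counts scaled by the table's gene length (another deposited value) and by summed counts, to a largest relative difference of 1.11e-09 above 200 counts, and served for isoform shares. The 51 rows without a symbol stayed in the totals. 

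Counts were filtered with filterByExpr, scaled by TMM and fitted in edgeR 4.0.16 (R 4.3.3, robust quasi-likelihood F-test, group only, p adjusted over all 14536 genes). CPM use TMM-scaled library sizes, and standard errors are the log2 fold change over the square root of F. With 4 libraries a group, the spread between libraries and the counts per gene set the precision, and intervals cover 95%. Alternatives were DESeq2 1.42.0, limma 3.58.1 (voom with quality weights), DESeq2 size factors, no filter, a replicate block and each library left out. The test was checked on simulated data, with 50 changed genes at each size of change. It recovered 1 of 50 at 1.1-fold, 7 at 1.2-fold, 45 at 1.5-fold and 49 at 2-fold. Of its 111 calls, 9 were genes left unchanged. The changed genes were drawn only from those above a minimum mean CPM, so the recovery does not cover little expressed genes. Promoter windows came from RefSeq (GRCm38.p6); coordinates of the deposited table were not mixed with them.

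Values are given by library for members that passed, the 12 with the smallest p, and 22 fixed representatives, together 32 genes, and for the leading gene of each other list. One of these genes is not reported here. Atp6v0d1 and the untested isoforms were added after their values were seen. The members and lists were chosen with earlier results of these data known. Figures used matplotlib 3.10.9.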

Additional observations from a re-analysis of the deposited data

Results flagged for a closer look

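In each group of 4 libraries the gap from an extreme library to its nearest neighbour was set against the group's range, for the genes described by library or leading a list. Of 74 groups, 8 exceeded Dixon's 95% critical value, or 10.8%, where chance flags about 1 in 20. Model 2 was the odd library in 3 of them. Atg9a was at 33.9 CPM in Model 2, against 53.2 to 54.0 in the other Model libraries. Map1lc3b was at 198 CPM in Model 2, against 171 to 173, and Ctsb at 527 against 476 to 485. In Model 1, Rubcn was at 97.5 CPM against 92.0 to 92.8. In IsoL 1, Tfeb was at 13.2 CPM against 9.85 to 10.3, and Atg9a at 57.2 against 55.2 to 55.3. In IsoL 2, Atp6ap2 was at 349 CPM against 328 to 331. In IsoL 4, Ctsd was at 97.7 CPM against 92.8 to 93.3.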

How the results depend on the processing

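No member passed in edgeR under any alternative, and 1 passed in DESeq2 (Map1lc3a); 8 had an unadjusted p under 0.05. The median log2 fold change of the members kept within -0.018 and 0.0072. The count of all genes that passed, 40, became 311 in DESeq2, 175 in limma voom, 74 with no filter on low counts and 17 with a replicate block, and ran from 6 to 146 with 1 library left out, the highest without Model 2 and the lowest without IsoL 2 or Model 4. Without IsoL 1 and IsoL 2 it was 31 (chosen after seeing the data). The block left 0 members; the correlations of same-numbered libraries were 0.026, 0.0199, 0.0696 and 0.0626, and no library of Model correlated best with its own number except Model 4, so the numbers were not taken to pair. Signs turned for genes near no change, and the cause was not tested. In limma voom the log2 fold change was -0.015 for Atp6v0c, 0.035 for Becn1, 0.0086 for Ctsb, 0.024 for Ctsd, -0.011 for Ctsl, 0.022 for Lamp1, 0.027 for Map1lc3b and -0.0034 for Tfeb. Becn1 was at 0.0023 in DESeq2, 0.0023 with DESeq2 size factors, 0.0016 with no filter and 0.0015 with the block, where Atp6v0c was at -0.00011. Without IsoL 1 and IsoL 2, Atp6v0c was at -0.0023, Tfeb at -0.11 and Ulk1 at -0.0020. With 1 library left out, the ranges were -0.0050 to 0.098 for Atp6v0a1, -0.025 to 0.027 for Atp6v0c, -0.034 to 0.0063 for Atp6v1a, -0.0092 to 0.084 for Atp6v1h, -0.034 to 0.044 for Becn1, -0.034 to 0.014 for Ctsb, -0.075 to 0.035 for Ctsd, -0.016 to 0.056 for Ctsl, -0.030 to 0.033 for Lamp1, -0.028 to 0.047 for Map1lc3b and -0.092 to 0.068 for Tfeb. Too few counts left 7 members untested, each with a mean of at most 0.374 CPM.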

Other observations

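Model 2 differed from the other Model libraries along gene length. All 16 tested members with a table length under 3000 bases were higher in Model 2 than in the mean of the other 3 Model libraries, by a median of 0.19 on the log2 scale, while of the 38 longer members 20 were higher and 18 lower, with a median of 0.0052. Over all genes tested, 65.6% of the shorter and 46.0% of the longer were higher in Model 2, with medians of 0.11 and -0.022. Atp6v0b, Atp6v0e2 and Atp6v1g1 are among the shorter members. So are Gabarap, Gabarapl1, Gabarapl2 and Map1lc3a of the Atg8 group, whose estimates all lay below Model. Map1lc3b and Sqstm1 of that group are among the longer, as is Atg9a, the lowest in Model 2. The limit of 3000 bases was chosen after the values were seen, and the cause of the pattern was not tested.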
